A study of Homo sapiens with 6 samples.

Results

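The nuclear-encoded subunits of the respiratory chain are described here across RNA-seq values from an experiment labelled as siRNA knockdown of αCP1 and αCP2 in K562 cells. The members were taken by their symbols, those of NDUF, SDH, UQCR, COX and ATP5 subunits together with CYC1, and the difference between the groups was not part of the rule. Of the 57150 genes in the table, 80 rows carried such a symbol. Where a symbol had several rows, the row with the highest mean FPKM was kept, which left 76 genes: 38 of complex I, 4 of complex II, 9 of complex III, 10 of complex IV and 15 of complex V. The symbols are those of the table, and NDUFA4, which is now placed in complex IV, is counted under complex I by its symbol.

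K562 is an established human leukemia cell line that is widely used as an erythroid model. The series compared 3 cell pools transfected with siRNAs that target the mRNAs of both αCP1 and αCP2, poly(C)-binding proteins of overlapping function, with 3 pools transfected with control siRNAs. The control siRNAs were directed against an unrelated mRNA, GLD-2, or were non-targeting, and all pools were harvested 72 h after transfection. RNA was sequenced to study alternative splicing. The depletion was transient and in 1 cell line. The table holds 1 FPKM value and 1 estimated count per gene for each group, in columns labelled KD and CTRL, and the way in which the 3 libraries behind a column were merged is not given in the sources used here. There is therefore no replicate check, no SD and no test for any difference below, and "higher" and "lower" compare 2 columns only. FPKM is a fragment count scaled by transcript length and by sequencing depth. The log2 ratios are of (FPKM + 1), KD over CTRL, which understates the change of low genes. In whole populations of cells, less RNA per cell and fewer cells of a type cannot be told apart.

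The estimated counts summed to 13699340 in the KD column and 11680567 in the CTRL column. The targeted mRNAs did not show the depletion: PCBP1, which encodes αCP1, had an FPKM of 184.1 in KD and 187.8 in CTRL, and PCBP2, which encodes αCP2, had 530.8 in KD and 342.4 in CTRL. Neither mRNA was 2-fold lower in KD, so the columns are called by their labels throughout. The authors report that αCP1 and αCP2 were depleted in their cell pools, in both mRNA and protein. Of 12 erythroid marker genes 6 were listed at 0 in both columns, GATA1, KLF1 and TAL1 among them, and 7 were under an FPKM of 1 in both. Only HBE1, an embryonic globin, was over 5 in both columns, at 152.9 in KD and 35.4 in CTRL. Of 8 epithelial markers 4 were over 5 in both, with the keratin KRT18 at 2309 and 1748. Another 3 were under 1 in both, KRT19 and CDH1 among them. The summed FPKM was 168 in KD and 44.4 in CTRL for the erythroid list and 4369.6 and 3189.5 for the epithelial list. By these values the columns show neither most of the erythroid genes listed for the labelled cell line nor the labelled depletion, so whether the table belongs to the labelled cells and knockdown is not known, and every ratio below compares the columns as deposited. The part of these differences in the values below was not tested.

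The respiratory chain carries electrons from NADH and succinate to oxygen in the inner mitochondrial membrane. Complexes I, III and IV pump protons as the electrons pass, complex II feeds electrons in without pumping, and complex V, the ATP synthase, uses the returning protons to make ATP. Most subunits are encoded in the nucleus and imported, while a few at the core of complexes I, III, IV and V are encoded by mitochondrial DNA, and these were not analysed here. The nuclear genes are known for binding of NRF1, GABPA (also called NRF-2) and YY1 at their promoters.

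Promoters were read from RefSeq on GRCh38.p14, from 250 bases before to 50 bases after the start site, for the 63 of 76 genes that could be matched. Motifs were searched on both strands, as GCGCANGCG for NRF1, CCGGAAGT for GABPA and AAGATGGC for YY1. The NRF1 motif was present in 21 of the 63 promoters (33.3%), against 8.05% of 27305 promoters of all genes and 11.02% of 15843 promoters of protein-coding genes. The YY1 motif was present in 11 (17.5%), against 3.03% and 3.91%. The GABPA motif was present in 9 (14.3%), against 4.44% and 6.19%. At least 1 of these motifs was found in 33 promoters (52.4%), against 14.1% and 19.02%, and no member held all 3. A match is a description of these letters and not a binding site. By complex, the NRF1 motif was in 9 of 33 promoters of complex I, 2 of 3 of complex II, 4 of 7 of complex III, 1 of 9 of complex IV and 5 of 11 of complex V. Among the 11 promoters with the YY1 motif, 9 held it downstream of the start site on the strand of the gene (81.8%), as did 55.7% of the 619 protein-coding promoters with that motif.

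The windows below show these motifs in capitals with up to 8 bases on each side, written 5′ to 3′ in the direction of transcription. The first 7 belong to genes at least 2-fold higher in KD by FPKM. Of these, COX8A, NDUFA13 and UQCRH had log2 ratios under 1 on both other scales described below. The last 5 belong to genes with a ratio below 0 on each scale, though by counts the interval of SDHA included 0. Both ends of the set were thus chosen by unlike rules, and the windows are shown for their letters only. A capital run that is not written as above is the motif on the other strand.
NDUFA11: gtccccggCGCGTGCGCgcgatcca
NDUFA3: gctccaggGCGCACGCGcagccctg
ATP5G2: ccgggtcaCGCATGCGCtgagcctt
COX5B: gcccgcccCCGGAAGTccctcctg
COX8A: gctccagaACTTCCGGccagcgca
NDUFA13: gcccgggaCCGGAAGTgtgggata
UQCRH: tgtgccgcACTTCCGGccagatcg
SDHA: ggtgtggtGCGCAGGCGcagtctgc
SDHD: ctgtgtttGCGCATGCGcgacgggt
UQCRFS1: cctcctcgCGCCTGCGCcgtggttg
ATP5O: ccaacgcgCGCGTGCGCccttgcgc
NDUFS1: ctggggccACTTCCGGcggaactg

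The NRF1 motif lies at chr19:5903879-5903887 for NDUFA11, chr19:54102782-54102790 for NDUFA3, chr12:53676116-53676124 for ATP5G2, chr5:218301-218309 for SDHA, chr11:112086763-112086771 for SDHD, chr19:29213173-29213181 for UQCRFS1 and chr21:33915819-33915827 for ATP5O. The GABPA motif lies at chr2:97646025-97646032 for COX5B, chr11:63974601-63974608 for COX8A, chr19:19516215-19516222 for NDUFA13, chr1:46303651-46303658 for UQCRH and chr2:206159595-206159602 for NDUFS1. NDUFA11, ATP5G2, UQCRFS1, ATP5O and NDUFS1 are transcribed from the minus strand and the other genes shown from the plus strand. In SDHA the NRF1 motif occurred at 4 places and in NDUFA3 at 2, and the one nearest to the start site is shown. COX5B held a further GABPA motif nearer to the start site, at chr2:97646057-97646064, and SDHD held a GABPA motif as well. NDUFA3 and ATP5O also held a YY1 motif.

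Members with and without each motif were compared by their ratios on the FPKM scale. The median log2 ratio was 0.36 for members with the NRF1 motif and 0.42 for members without it. It was 0.68 with and 0.33 without the GABPA motif, and 0.13 with and 0.43 without the YY1 motif. Of the 16 matched members that reached a log2 ratio of 1, 3 held the NRF1 motif, 4 the GABPA motif and 1 the YY1 motif, and of the other 47 members 18, 5 and 10 did. On all 3 scales described below, 11 matched members reached 1, and 3 of them held the NRF1 motif, 1 the GABPA motif and 1 the YY1 motif. Of the 11 matched members lower on all 3 scales, 6, 2 and 3 did. The larger share with the GABPA motif among the higher members was thus seen by FPKM and not on all scales. These shares come from few promoters and are given as values.

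The respiratory chain mRNAs were abundant in both columns. All 76 passed the filter of a mean FPKM of at least 1, as did 13741 genes of the table, and 64 of them lay in the top 10% of those genes by mean FPKM. The lowest member, NDUFS1, was at the percentile 65.8. FPKM ranged from 16.9 to 2141 in KD and from 7.05 to 2745 in CTRL. The order of the members by FPKM was similar in both columns, with a Spearman's rho of 0.85 over the 76 genes, which share the same 2 columns.

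**Figure D1:**
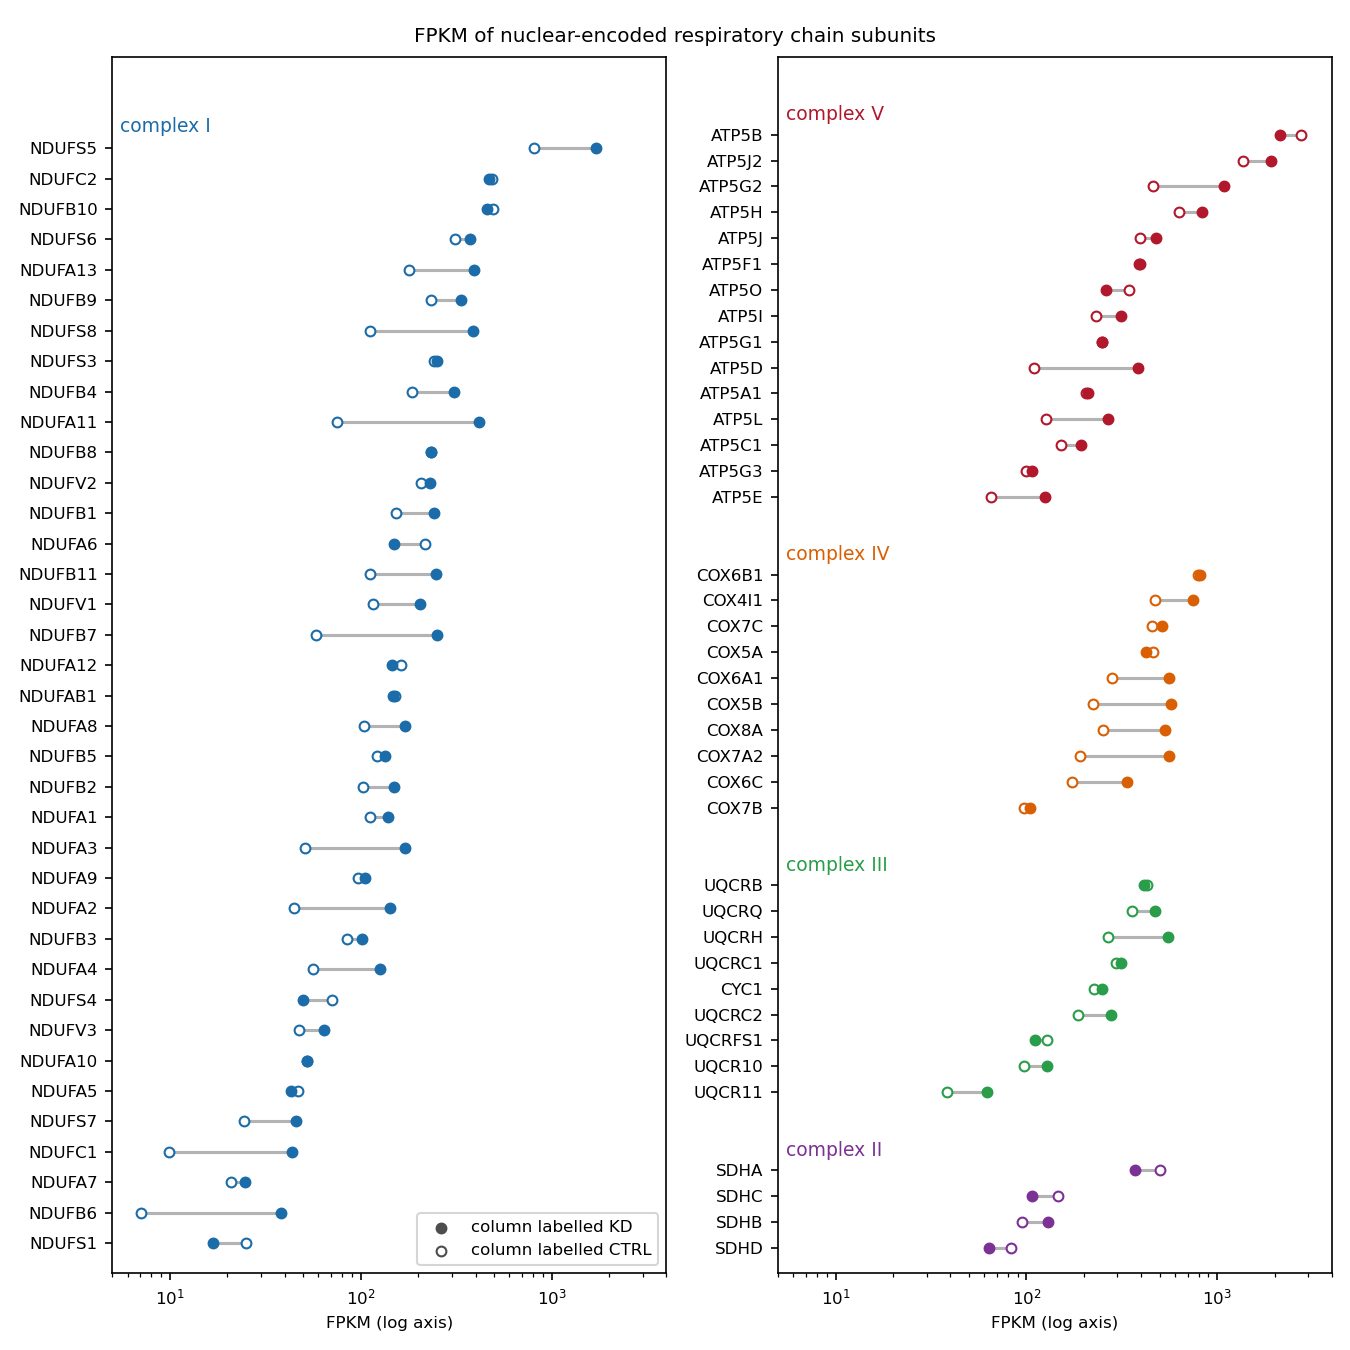
FPKM of the members reported here on a log axis, in the column labelled KD (filled) and in the column labelled CTRL (open), grouped by complex and ordered by mean FPKM. A line joins the values of a gene, and the longest lines belong to NDUFA11, NDUFB6, NDUFC1 and NDUFB7, all higher in KD.

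More members were higher than lower in KD. Of the 76 genes, 57 had a log2 ratio above 0 and 19 below it, and the median was 0.40 with quartiles of 0.00 and 0.95, while over all genes that passed the filter the median was 0.01 and 51.1% were higher. A log2 ratio of 1 or more was reached by 18 members (23.7%), against 8.51% of all genes, and a ratio of -1 or less by 0 members, against 3.27% of all genes. With a threshold of 1.5-fold, 29 members (38.2%) were higher, against 19.6% of all genes, and 0 were lower, against 12.4%. Among the 4694 genes at least as abundant as the lowest member, 10.5% had a ratio of 1 or more and 1.66% a ratio of -1 or less. Their median was 0.12 and 58.7% were higher, and at 1.5-fold 23.7% were higher and 8.69% lower. That background was chosen after the values were seen. The summed FPKM of the members was 26104 in KD and 19560 in CTRL, a fold of 1.33, and the summed FPKM of all genes that passed was itself 1.29-fold higher in KD.

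The same differences were computed from shares of the estimated counts, which do not depend on the transcript length used for FPKM. On this scale the median of all genes was -0.21, and that of the members was 0.17, so that the members lay 0.38 above all genes, and 0.39 above them on the FPKM scale. The 4694 genes at least as abundant as the lowest member had a count median of -0.088, nearer to that of the members. By sign, 48 members were higher and 28 lower in KD, and 54 lay above the median of all genes. A log2 ratio of 1 or more was reached by 12 members, against 6.92% of all genes, and a ratio of -1 or less by 0, against 9.83%. The 95% interval of each ratio (exact binomial, which covers counting error only) lay above 0 for 41 members, below 0 for 25 and across 0 for 10, and it reached 0.11 to either side of its centre in the median. Intervals were not counted over all genes, of which 8508 of 13741 were lower in KD by sign on this scale. Together the members took 1.32% of the counts in KD and 1.20% in CTRL, a fold of 1.10 (95% interval 1.10 to 1.11).

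Ratios over all genes moved with GC content, so a further scale was made by subtracting a quadratic fit on base composition and log2 transcript length over 13298 genes. It is called trend-corrected below. The median of the members was then 0.41, with 18 at 1 or more, against 5.15% of all genes, and 0 at -1 or less, against 3.63%. On all 3 scales 12 members had a log2 ratio of 1 or more, 44 were higher and 13 were lower. The shares of all genes that met these conditions on all 3 scales were not computed. The 12 were NDUFA11, NDUFB6, NDUFB7, NDUFC1, NDUFS8, NDUFA3, NDUFA2, NDUFA4, COX7A2, COX5B, ATP5D and ATP5G2. The 13 lower ones were NDUFS1, NDUFS4, NDUFA6, NDUFA12, NDUFB10, NDUFAB1, SDHA, SDHC, SDHD, UQCRFS1, COX5A, ATP5B and ATP5O.

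**Figure D2:**
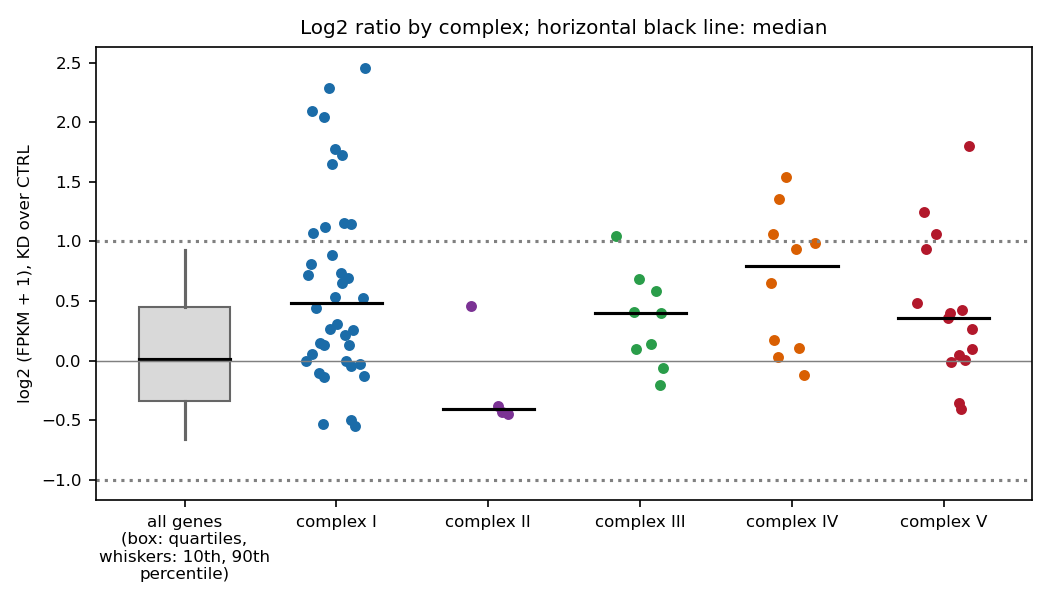
Log2 ratio of (FPKM + 1), KD over CTRL, for each member by complex (points, with the median as a black line), beside all genes that passed the filter (box for the quartiles, whiskers for the 10th and 90th percentiles). Dotted lines mark -1 and 1. Complex II sits below 0 except for SDHB, and complex IV has the highest median, 0.80.

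Complex I, NADH:ubiquinone oxidoreductase, takes electrons from NADH and passes them to ubiquinone. Of its 38 nuclear genes 28 were higher and 10 lower in KD, with a median log2 ratio of 0.48, and 11 had a ratio of 1 or more. The summed FPKM was 8731 in KD and 5720 in CTRL, and its share of the counts was 1.30-fold higher (95% interval 1.29 to 1.32). The 7 core subunits, which hold the flavin and the iron-sulfur clusters or line the quinone site, comprised 6 higher and 1 lower genes, and their median was 0.73. The 31 accessory subunits had a median of 0.44 and included 10 of the 11 genes with a ratio of 1 or more. After trend correction the medians were 0.37 for the core and 0.48 for the accessory subunits, so their order was reversed.

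In the module that receives electrons from NADH, the core subunits differed in direction. NDUFV1, which binds NADH and the flavin, had an FPKM of 204 in KD and 116 in CTRL, a log2 ratio of 0.81, and 0.37 after trend correction. NDUFV2, which holds an iron-sulfur cluster, had 229 and 208, a ratio of 0.14, and its count interval included 0. NDUFS1, the large iron-sulfur subunit, had 16.9 and 25.1, a log2 ratio of -0.55, the lowest of all members. Its count shares gave -0.44 (95% interval -0.58 to -0.29). Subunits of the same module thus lay on both sides of 0.

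In the module that reduces ubiquinone, all 4 core subunits were higher on the FPKM scale. NDUFS8, which holds a pair of iron-sulfur clusters, had an FPKM of 386 in KD and 112 in CTRL, a log2 ratio of 1.77. NDUFS7 had 45.8 and 24.4, with a ratio of 0.88, and 0.42 after trend correction. NDUFS3, by contrast, had 251 and 242, a ratio of 0.05, and its count shares gave -0.38 (95% interval -0.48 to -0.28), so its direction depended on the scale.

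The largest ratios of the whole set belonged to accessory subunits of complex I, most of which surround the core and are needed for its assembly or stability. NDUFA11, a membrane subunit (ENSG00000174886, chr19:5891287-5904017 on GRCh37, minus strand), had an FPKM of 418 in KD and 75.1 in CTRL, a log2 ratio of 2.46. Its estimated counts of 2173 and 411.2 gave 2.17 (95% interval 2.02 to 2.33), and the trend-corrected ratio was 1.84. NDUFB6 (chr9:32552997-32573160, minus strand) had an FPKM of 38.4 and 7.05, a log2 ratio of 2.29, and 2.45 after trend correction. Its counts of 281 and 79 gave a smaller 1.59 (95% interval 1.24 to 1.98). Both genes were therefore higher in KD on each scale, while the size for NDUFB6 differed between FPKM and counts.

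NDUFB7 (chr19:14676890-14682878, minus strand) had an FPKM of 252 in KD and 58.1 in CTRL, a log2 ratio of 2.10, and 1.24 after trend correction. NDUFC1 (chr4:140188034-140223705, minus strand), a small membrane subunit, had 43.7 and 9.86, a ratio of 2.04. Its counts were the lowest of any member, 156 and 48.6, and the interval of its count ratio of 1.44 ran from 0.97 to 1.93. NDUFA3 had an FPKM of 171 in KD and 50.8 in CTRL, a log2 ratio of 1.73. NDUFA2 had 143 and 44.8, a ratio of 1.65. For these genes FPKM in KD was more than 3 times that in CTRL.

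The other accessory subunits with a ratio of 1 or more differed less between the columns. NDUFB11, encoded on the X chromosome, had an FPKM of 248 in KD and 111 in CTRL (log2 ratio 1.15). NDUFA4 had 126 and 56.1 (1.15), and its count ratio of 1.23 was at least as large. NDUFA13, also known as the cell death regulator GRIM-19, had 392 and 179.5 (1.12), which was 0.48 after trend correction. NDUFS5, the most abundant complex I mRNA, had 1701 and 810.1 (1.07). NDUFS5, NDUFB11 and NDUFA13 were under 1 on the count scale, at 0.86, 0.89 and 0.90.

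At the lower end, NDUFA6 had an FPKM of 149 in KD and 216 in CTRL, a log2 ratio of -0.53, with a count ratio of -0.47 (95% interval -0.59 to -0.35). NDUFS4, an accessory subunit mutated in Leigh syndrome, had 49.8 and 70.9, a ratio of -0.50. NDUFB10 and NDUFC2, both among the most abundant complex I mRNAs, had similar FPKM in the columns, at 458 against 493 and 473 against 489.6. For NDUFB10 the count ratio was -0.29 (95% interval -0.36 to -0.21) and the trend-corrected ratio -0.59. NDUFAB1, the mitochondrial acyl carrier protein, was also near 0, at -0.03.

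Complex II, succinate dehydrogenase, is the only complex of the chain that is encoded wholly in the nucleus, and it is also an enzyme of the tricarboxylic acid cycle. SDHA, the flavoprotein that oxidises succinate, had an FPKM of 370.1 in KD and 499.7 in CTRL, a log2 ratio of -0.43. SDHB, the iron-sulfur subunit, went the other way with 129.9 and 94.5, a ratio of 0.45. The membrane anchors that bind ubiquinone and heme were both lower: SDHC had 107 and 146, a ratio of -0.45, and SDHD had 63.5 and 83.2, a ratio of -0.38. The median of the 4 genes was -0.41, the only complex with a median below 0, and the summed FPKM was 670.1 in KD and 823 in CTRL.

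The anchors were lower on both scales, while SDHA was nearly equal by counts. On the count scale SDHC had -0.47 (95% interval -0.57 to -0.37) and SDHD -0.63 (-0.75 to -0.50). SDHA had counts of 5308 in KD and 4595 in CTRL, a ratio of -0.02 (-0.08 to 0.04), which is above the median of all genes on that scale. Relative to that median, 2 of the 4 genes were higher and 2 lower, and the complex lay at -0.04, against -0.42 on the FPKM scale. The share of the counts taken by complex II was 0.919 times that in CTRL (95% interval 0.893 to 0.946).

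Complex III passes electrons from ubiquinol to cytochrome c. Of its 9 nuclear genes 7 were higher and 2 lower in KD, with a median log2 ratio of 0.40, and its share of the counts was 1.06-fold higher (95% interval 1.04 to 1.08). Its catalytic subunits had similar FPKM in the columns. CYC1, cytochrome c1, had an FPKM of 248 in KD and 225.5 in CTRL, a ratio of 0.14, and UQCRFS1, the Rieske iron-sulfur protein, had 111 and 128, a ratio of -0.21. The count ratio of CYC1 was -0.07 and its trend-corrected ratio -0.61, the lowest of the members on that scale, so its sign differed between the scales.

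Among the other complex III genes, UQCRH, the hinge protein, had an FPKM of 553 in KD and 267 in CTRL, a log2 ratio of 1.05 and the only one of the complex past 1. On the count scale it was 0.78, below the threshold. UQCR11, the lowest complex III mRNA, had 62.5 and 38.5, a ratio of 0.68. UQCRB, the second lowest ratio of the complex, was at -0.06 with 413 and 431. The core proteins UQCRC1 and UQCRC2, which do not hold cofactors, were at 0.10 and 0.58 on the FPKM scale and at 0.43 and 0.14 on the count scale, so their order was reversed between the scales.

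Complex IV, cytochrome c oxidase, reduces oxygen to water, and its nuclear subunits surround a catalytic core that is encoded in the mitochondria. It had the highest median of the complexes, 0.80, with 9 of 10 genes higher and 1 lower. The count ratios had a median of 0.62, and the share of the counts was 1.22-fold higher (95% interval 1.20 to 1.25). COX7A2, the widely expressed isoform of subunit VIIa, had an FPKM of 560.5 in KD and 192 in CTRL, a log2 ratio of 1.54. COX5B had 575 and 224, a ratio of 1.36, and 1.15 on the count scale (95% interval 1.06 to 1.24). COX8A had 532 and 254, a ratio of 1.07, which was 0.86 from counts and 0.62 after trend correction.

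COX6A1 and COX6C lay just under the threshold, with ratios of 0.98 and 0.94, and COX4I1, the subunit that binds ATP, had an FPKM of 747 in KD and 475 in CTRL, a ratio of 0.65. The most abundant mRNA of the complex, COX6B1, was nearly equal, with 813 and 797, and so was the least abundant, COX7B, with 104.9 and 97.5. COX5A was the only gene of the complex lower on the FPKM scale, with 421 and 459, a ratio of -0.12. On the count scale COX5A, COX6B1 and COX7B were all below 0, at -0.34, -0.21 and -0.25. The median of all genes on that scale was -0.21, so COX6B1 lay about at it and COX7B close to it.

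Complex V, the ATP synthase, couples the flow of protons through its membrane part to ATP synthesis in its F1 head. Of its 15 nuclear genes 12 were higher and 3 lower, with a median log2 ratio of 0.36, and the summed FPKM was 8955 in KD and 7577 in CTRL. By counts the complex did not take a larger share: 0.957 times that in CTRL (95% interval 0.946 to 0.968). By single genes, 8 count ratios were above 0 and 7 below, and 11 lay above the median of all genes. ATP5B, the catalytic β subunit and the most abundant member, had an FPKM of 2141 in KD and 2745 in CTRL, a ratio of -0.36. Its counts were 15529 and 21320, a ratio of -0.69 (95% interval -0.72 to -0.66). The counts of the whole complex were 60086.5 and 53525, so ATP5B weighed heavily in the share of the complex.

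The subunits of the F1 head and stalk, which work in fixed proportions in the enzyme, spanned most of the range. ATP5D, the δ subunit of the stalk, had an FPKM of 385 in KD and 109.8 in CTRL, a log2 ratio of 1.80, with 1.51 from counts and 1.07 after trend correction. ATP5A1, the α subunit that alternates with β in the head, was nearly equal with 212 and 205, a ratio of 0.05. ATP5E, the ε subunit and the lowest complex V mRNA, had 126 and 65.4, a ratio of 0.94. ATP5C1, the γ subunit that turns within the head, had 194 and 151, a ratio of 0.36, but its counts of 1758 and 1815 gave -0.28 (95% interval -0.37 to -0.18).

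The c-ring is built from identical proteins encoded by ATP5G1, ATP5G2 and ATP5G3, which differ only in their import sequences. ATP5G2 had an FPKM of 1091 in KD and 458 in CTRL, a log2 ratio of 1.25, while ATP5G1 (249 and 248) and ATP5G3 (107 and 99.97) had ratios of 0.01 and 0.10. The higher FPKM of the c-ring genes in KD was thus mostly that of ATP5G2. Of the peripheral stalk, which holds the head still, ATP5O had 260.5 and 347, a ratio of -0.41, and ATP5H had 832 and 629.8, a ratio of 0.40. In the membrane part ATP5L, the g subunit, had 267 and 127, a ratio of 1.06, which was 0.77 from counts.

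**Figure D3:**
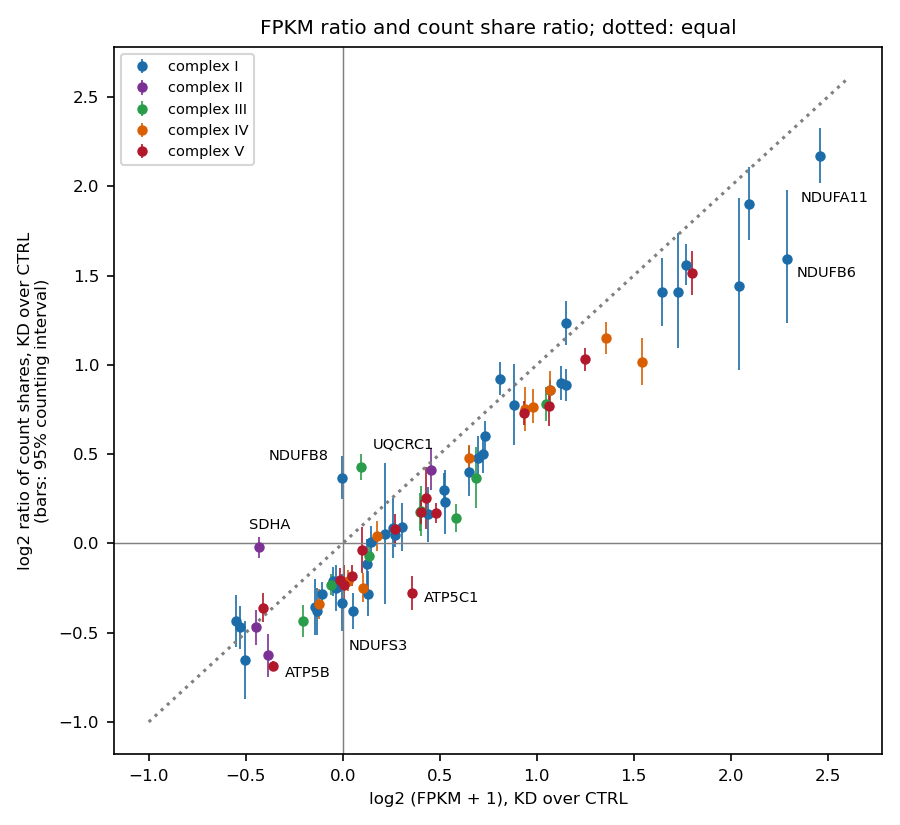
Log2 ratio of (FPKM + 1) on the x axis against the log2 ratio of count shares on the y axis, both KD over CTRL, for the 76 members, with bars for the 95% counting interval and a dotted line where the values are equal. Most points lie a little below the line, SDHA, NDUFB8 and UQCRC1 lie furthest above it, and NDUFB6 and ATP5C1 lie furthest below.

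The sign of the ratio differed between FPKM and counts for 11 members, of which 10 were higher by FPKM and lower by counts. The gap between the scales was measured as the log2 change in counts per FPKM relative to all genes. It was at least 0.5 in either direction for 4 members (5.26%), near the 5.07% of 12718 genes. The 4 were SDHA at 0.64, NDUFB8 at 0.60, UQCRC1 at 0.56 and NDUFB6 at -0.62. NDUFB8 had equal FPKM, 232 in KD and 233 in CTRL, from counts of 1409 and 931. Another row of the table with the symbol NDUFB8 had an FPKM of 26.4 in KD and 2.37 in CTRL, and the sum of both rows was the only case where adding rows changed a ratio by more than its counting error. Which transcripts differed was not tested.

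GC content moved with the ratios. Over all genes Spearman's rho between the GC content of the longest transcript and the log2 ratio was 0.45, and over the 76 members it was 0.27. Among the 19 members richest in GC, from 53.2% to 64.9%, the median was 0.88 and 47.4% had a ratio of 1 or more, while the 4360 genes of that GC range had a median of 0.40 and 785 of them reached 1. Among the 19 members poorest in GC, from 34.1% to 41.7%, the median was 0.26 and 15.8% had a ratio of 1 or more, against -0.24 and 1.62%. In the groups of 19 between them the medians were 0.13 and 0.40, against -0.14 and 0.04. The members lay above the genes of like GC content in all 4 groups, by medians that were not tested.

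**Figure D4:**
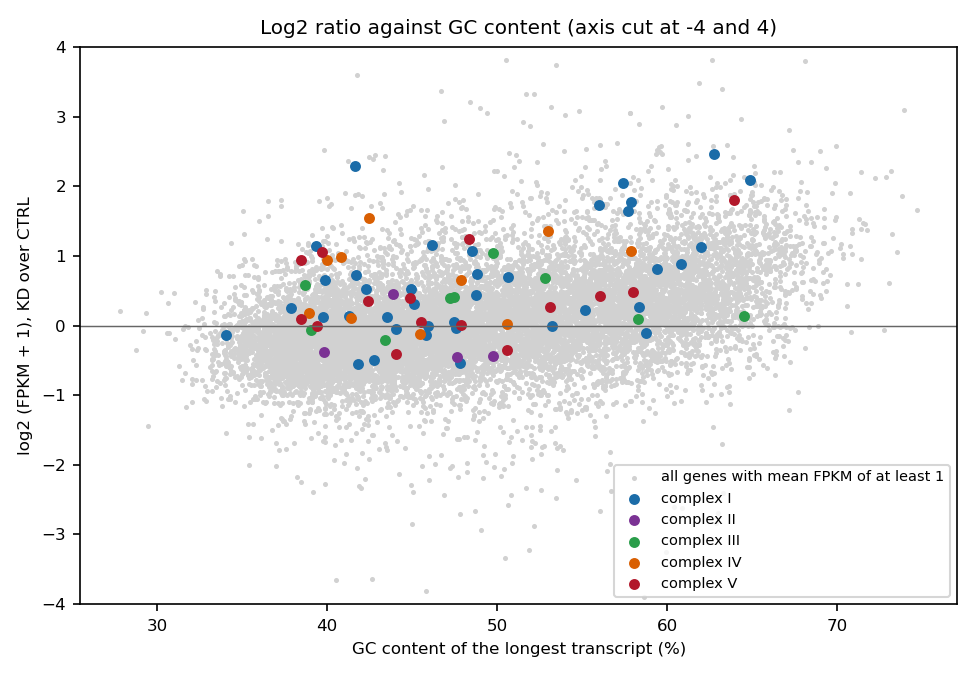
Log2 ratio of (FPKM + 1), KD over CTRL, against the GC content of the longest transcript for the members, coloured by complex, over every gene that passed the filter (grey). The grey cloud rises with GC content. Among the members NDUFA11, NDUFB7 and ATP5D lie at the GC-rich end, while NDUFB6 and COX7A2 have high ratios at low GC content.

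Chromosome 19, which is rich in GC, carried 10 of the 76 genes. Of these, 9 were higher and 5 had a ratio of 1 or more, with a median of 1.003, against 0.33 for the other 66 members. Over all 923 genes of chromosome 19 that passed the filter the median was 0.37, and 18.7% had a ratio of 1 or more. After trend correction the median of the 10 genes was 0.48, against 0.38 for the other 66 members and 0.098 for all genes of the chromosome.

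Other genes of the pathway were taken from lists written with earlier results of these data known. Of 38 assembly and expression factors, all of which passed the filter, 25 were higher and 13 lower, with a median log2 ratio of 0.18, and 4 had a ratio of 1 or more (10.5% of the list, against 8.51% of all genes). COX17, a copper chaperone for complex IV, had the highest ratio, 1.27, with an FPKM of 134.8 in KD and 55.2 in CTRL. NDUFAF4, a complex I assembly factor, had the lowest, -0.85, with 27.0 and 49.4. TIMMDC1, the most abundant of the list, had 186 and 126. On the count scale the median of the list was -0.06, which is above the median of all genes.

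Of 13 other subunits, isoforms and carriers, 7 passed the filter and 4 were listed at 0 in both columns, namely COX4I2, COX6A2, COX7B2 and COX8C. COX6B2 and COX7A1 were under an FPKM of 1 in both. These are isoforms of complex IV restricted to certain tissues, and their widely expressed forms are among the members. ATPIF1, the inhibitor of the ATP synthase, had an FPKM of 487 in KD and 194 in CTRL, a log2 ratio of 1.33. CYCS, cytochrome c, had 178 and 210.3, a ratio of -0.24.

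The direction of the nuclear regulators of these genes depended on the scale. Of 11 listed, 10 passed the filter, with 3 higher and 7 lower and -0.15 as the median, which was 0.088 after trend correction. ESRRA, an orphan nuclear receptor of mitochondrial genes, was highest, with an FPKM of 43.95 in KD and 20.2 in CTRL, a log2 ratio of 1.08, which was 0.39 after trend correction, and TFB1M was lowest at -0.38. NRF1 itself had 8.38 and 7.73, GABPA had 5.43 and 6.13, and YY1, the most abundant, had 40.8 and 48.2. The 13 enzymes of the tricarboxylic acid cycle outside complex II comprised 5 higher and 8 lower genes, and their median was -0.14. DLD was lowest among them at -0.55, and MDH2 was the most abundant, with 214 in KD and 199 in CTRL.

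Several members have processed pseudogenes whose reads the authors' counting could have split. Of 110 rows named as pseudogenes of 37 members, 84 were listed at 0 in both columns and 12 had a mean FPKM of at least 1. The only abundant one was COX6A1P2, with an FPKM of 331 in KD and 242 in CTRL, beside 558 and 282 for COX6A1, so the value of COX6A1 is uncertain. The library kit did not mark strand, and 48 of the 76 members shared a locus of the authors' tool with other genes, NDUFA11, NDUFB6, NDUFA3 and NDUFC1 among them. Whether exons overlap within these loci was not examined, and where they do, strand could not separate the reads. How many of all genes shared a locus was not computed.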

How the data were processed

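Reads of 3 libraries labelled as αCP1/2 knockdown and 3 labelled as control were mapped by the authors with TopHat 1.4.1 to hg19 and Ensembl release 65, and FPKM was calculated with Cuffdiff 2.2.0. The deposited table gives per gene and group 1 FPKM and 1 estimated count. The deposited estimated counts need not be whole. They were rounded for the binomial intervals and left as deposited for the ratios. Its columns of fold changes, p-values and FDR hold the authors' own comparison and were not used. The rule for members and the lists were chosen with earlier results of these data known. A test on single libraries had been planned and could not be run. Log2 ratios used a pseudocount of 1 and a filter of a mean FPKM of at least 1. Count shares used 0.5 added to each count and exact binomial (Clopper-Pearson) 95% intervals. GC content, length and coordinates came from GENCODE release 44 on GRCh37. Named genes were the extremes of level and ratio in each complex, every member at 1 or more, the core subunits and up to 3 genes a list; members whose scales differed, COX6A1, COX6C, COX4I1, NDUFB10, NDUFC2, NDUFAB1, ATP5A1, the genes NRF1 and GABPA and the motif windows were named after their values were seen. Values of some single genes are not reported here. The steps were tested on simulated data. The software was scipy 1.17.1, pandas 2.3.3, matplotlib 3.10.9, numpy 2.4.6 and Python 3.11.15.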

Additional observations from a re-analysis of the deposited data

How the results depend on the processing

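With 1 value per group, counting error is the only error that could be computed, and it leaves out the spread between cell pools. No paired analysis was possible because the columns carry no replicate numbers, and for the same reason no library could be left out in turn. From count shares the median log2 ratio was 0.17 for all members, 0.27 for complex I, -0.25 for complex II, 0.17 for complex III, 0.62 for complex IV and 0.082 for complex V, against 0.40, 0.48, -0.41, 0.40, 0.80 and 0.36 from FPKM. After subtraction of the fit on base composition and length it was 0.65 for complex IV and 0.18 for complex V. The number of members lower by 1.5-fold or more was 0 from FPKM, 3 from count shares and 2 after trend correction. The medians of all members and of the 5 complexes kept their sign in these settings, but those of smaller groups did not: from count shares the F1 head and stalk had -0.18, the c-ring -0.036 and the peripheral stalk -0.061, against 0.36, 0.097 and 0.13 from FPKM. These count medians lay above the median of all genes on that scale, which was -0.21. A pseudocount of 0.1, no filter, a mean FPKM of at least 5 and centring on the median moved 0 of the 76 single ratios by more than their counting error, adding rows of a symbol moved 1, trend correction 50 and count shares 66. The median of all genes was itself 0.01 from FPKM and -0.21 from count shares, while the median counting error of a member was 0.11. Relative to all genes the median of the members was 0.39 from FPKM and 0.38 from count shares. The cause of the single shifts was not tested.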
